A study of Mus musculus with 24 samples.

Results

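Cytosolic nucleic acid sensors are the proteins that recognise foreign or misplaced RNA and DNA inside the cell. The 8 genes described here are Ifih1, Ddx58, Dhx58, Mavs, Zbp1, Eif2ak2, Ifi204 and Adar. They were chosen by name for a part in this recognition, with earlier results of these data known. Mavs is an adaptor of such sensors and is counted with them below. The table held 24273 genes, and all 8 were among the 13901 genes that passed the filter on low values. Their mRNA was measured by RNA sequencing in bone marrow-derived macrophages (BMDMs), cultured cells that differentiate from the marrow of C57BL/6 mice. All groups carried LysM-Cre, a Cre recombinase expressed from the lysozyme locus Lyz2 and so active in myeloid cells. The groups named FosKO were meant to lack Fos as well, through deletion of a floxed Fos gene. The labels call the control LysM-Cre, whereas the text of the study also gives it a floxed Fos allele, and the values cannot settle this. BMDMs were left unstimulated (0 h) or were stimulated for 0.5, 1 or 2 h with lipopolysaccharide (LPS, a bacterial ligand of the receptor TLR4) at 100 ng/ml. Each of the 8 groups had 3 libraries, 24 in all. The age of the mice, and whether the replicates came from separate mice, are not given in the labels.

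RNA helicases of this family bind double-stranded RNA in the cytosol. Those with signalling domains pass the signal to Mavs, an adaptor on the outer mitochondrial membrane, which leads to transcription of type I interferons. Type I interferons act back on the cell and raise the transcription of most of these sensors, so the sensors are also classed as interferon-stimulated genes. In macrophages, LPS reaches the same interferon genes by another route, through TLR4 and the adaptor Trif.

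The values are normalised log2 values deposited by the authors, 1 per gene and library, so that a difference of 1 is a doubling. A gene was called when its adjusted p in the limma fit was under 0.05, and each count of sensors is given beside the percentage of all tested genes called in the same direction. The values do not allow levels to be compared between genes, and the number of reads behind each value is unknown. Across genes, any pair of libraries from 1 group had an r of 0.9987 to 0.9996. Fos itself did not verify the FosKO label: at 0 h its value was 11.11 ± 0.05 (SD, n = 3) in LysM-Cre and 12.60 ± 0.17 (SD, n = 3) in FosKO, and at 0.5 h it was 13.52 and 12.75. At 1 and 2 h it was again higher in FosKO, by 1.64 and 3.29. Since the table holds 1 value per gene, reads from outside a deleted stretch cannot be separated, so directions below refer to the FosKO-labelled libraries. Lyz2, the locus that carries Cre, was 5.17, 4.89, 4.98 and 5.06 higher in the FosKO-labelled libraries at 0, 0.5, 1 and 2 h. The genotypes thus differed at Lyz2 as well as in the Fos label. The parts of these in the genotype differences below cannot be told apart. The 18S ribosomal RNA gene Rn18s-rs5 was low, between 16.65 and 17, in 5 libraries of the 0.5 and 1 h groups and 18.57 to 19.39 in the other 19. The rows of the macrophage markers Adgre1, Csf1r, Cd68, Itgam, Mertk and Fcgr1, 7 in all, passed the filter, and their summed level at 0 h was 16.96 to 16.99 in LysM-Cre and 16.96 to 17.05 in FosKO. Of the T cell and B cell markers, 0 of 3 passed in each list. Of 4 neutrophil markers 2 passed, the defining Ly6g and Elane did not, and the summed level at 0 h was 5.61 to 5.87 in LysM-Cre and 5.02 to 5.26 in FosKO. Single markers did differ. At 0 h in the FosKO-labelled libraries the macrophage markers Mertk, Fcgr1 and Cd68 were 0.97, 0.65 and 0.21 higher, while Adgre1, Csf1r and Itgam were called lower, with differences of -0.15, -0.14 and -0.19. The neutrophil markers S100a8 and S100a9 had differences of -0.47 and -0.81 at 0 h and of -0.60 and -1.07 at 2 h, and the mast cell marker Kit had one of -0.43 at 0 h. At 2 h Mertk, Fcgr1 and Cd68 were 1.65, 0.73 and 0.17 higher, and the dendritic cell marker Zbtb46 and the fibroblast marker Col3a1 had differences of -0.96 and -0.53. The defining Cpa3 of mast cells and Flt3 and Siglech of dendritic cells did not pass the filter. The part of these markers in the results was not tested. In bulk RNA, more cells that express a gene and more RNA per cell cannot be told apart.

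RefSeq promoter entries (GRCm38.p6, from 250 bases before to 50 bases after a start site) matched 5 of the 8 sensors by symbol: Ifih1, Ddx58, Mavs, Eif2ak2 and Adar, the last with 3 start sites. They were searched on both strands for the core of the interferon-stimulated response element, GAAANNGAA, and for the site of AP-1, TGANTCA, the class of site that Fos binds together with Jun proteins. The interferon core was present in entries of 4 of the 5 sensors, with 7 matches. Among all genes with such entries, 9.76% of 27025 had a match, and among all 32851 promoters of this length 8.56% did. The match nearest to a start site is shown for each of the 4 because they can be read beside the interferon-stimulated behaviour for which these genes are known. Each is 30 bases on the strand of the gene, 5′ to 3′, with the matched letters in capitals.
Ifih1, chr2:62646206-62646235, minus strand: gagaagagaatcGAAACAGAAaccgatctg
Ddx58, chr4:40239803-40239832, minus strand: ctgaggcagtTTCGATTTCctatggccagc
Eif2ak2, chr17:78882535-78882564, minus strand: agtccgccggGAAAACGAAacagaagagaa
Adar, chr3:89730738-89730767, plus strand: ttttcaaggaaacGAAAGTGAActctgggg
The match lay 33 to 41 bases into the transcribed sequence in Ifih1 and 19 to 27 bases into it in Eif2ak2, where another match at 25 to 33 overlapped it. In Ddx58 the core was read on the opposite strand, 4 to 12 bases after the start, and in Adar it lay 34 to 42 bases after 1 of the 3 starts. Ifih1 had a further match before its start, on the opposite strand, and it is printed for comparison with the site after the start.
Ifih1, chr2:62646348-62646377, minus strand: agaattcgcgTTCCCTTTCctgtttctcac
No match to GAAANNGAA was found in the Mavs window. None of the 5 sensors had a match to TGANTCA, which was present in 7.81% of all promoters of this length and in entries of 8.97% of the genes. A match or its absence describes these letters in this window and not the binding of a protein.

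The first question was whether the sensors differed between the genotypes. All 8 were higher at 0 h in the FosKO-labelled libraries, where 19.5% of all tested genes were called higher and 15.9% lower. The median difference was 0.77 on the log2 scale, against 0.00 over all tested genes. At 0.5 h, 7 of the 8 were called higher (21.2% of all tested genes were higher and 19.7% lower), and the exception was Mavs. At 1 h all 8 were called higher (18% higher and 15.9% lower). At 2 h, 7 were called higher and Mavs was called lower (24.4% higher and 20.3% lower). For each of these calls, no library of one genotype overlapped the other genotype. Many tested genes were apart in this way: before LPS 24% lay higher and 20.5% lower, after 0.5 h of LPS 25.9% and 24.9%, after 1 h 23.7% and 21.3%, and after 2 h 28.9% and 25.1%. The calls of the 7 sensors other than Mavs held at all 4 times under every alternative run.

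**Figure D1:**
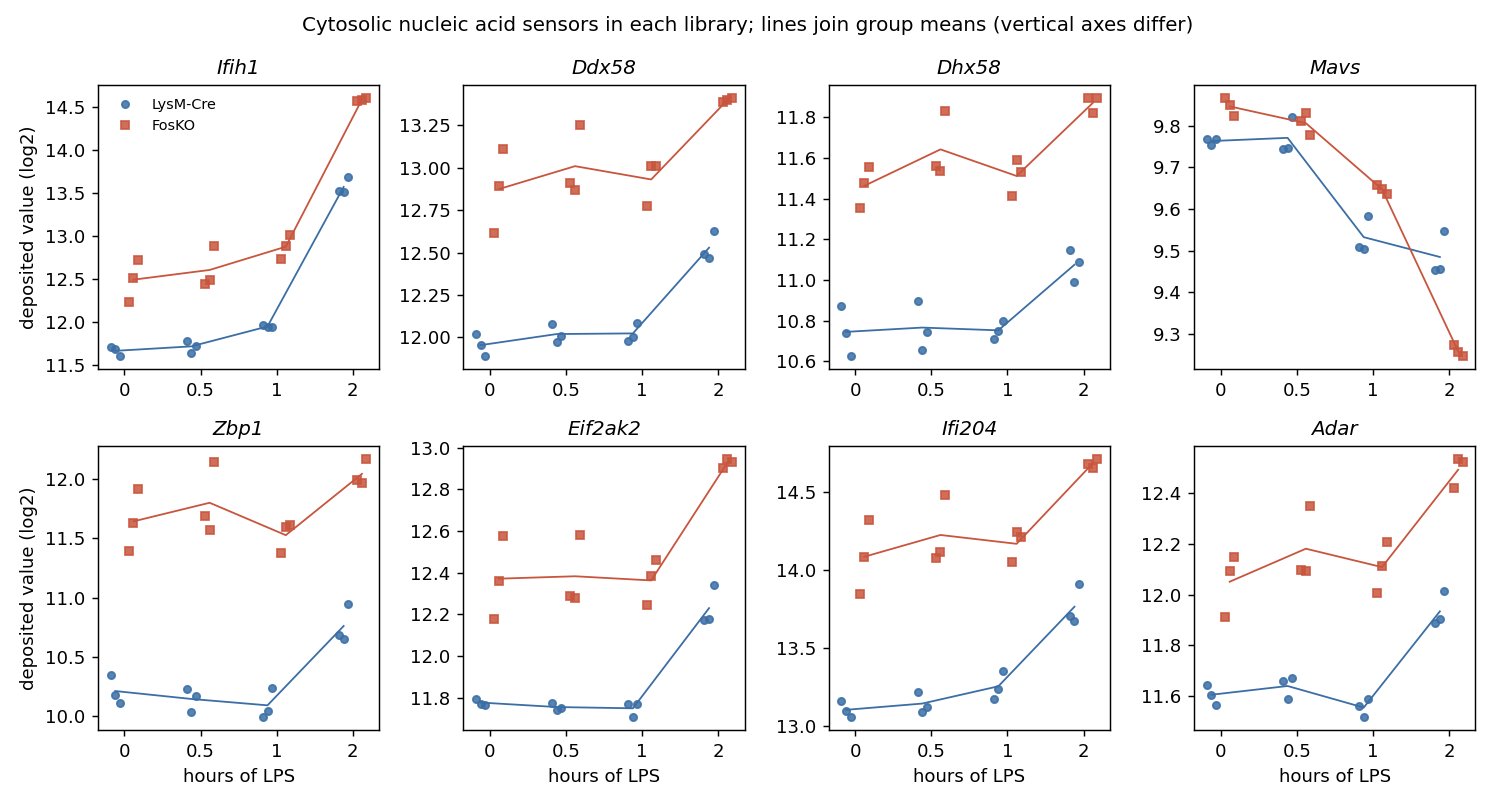
Deposited log2 value of each sensor (vertical axes differ between panels) against hours of LPS, drawn at equal steps, with 1 point per library and lines through the group means. Circles are LysM-Cre and squares the FosKO-labelled libraries. In every panel but Mavs the squares lie above the circles at all 4 times.

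Ifih1 encodes MDA5, the helicase that binds long double-stranded RNA (chr2:62595798-62646255, minus strand, build mm10). At 0 h its values were 11.70, 11.68 and 11.60 in LysM-Cre and 12.23, 12.51 and 12.72 in the FosKO-labelled libraries. The groups did not overlap, and the FosKO-labelled libraries lay 0.83 higher (SE 0.10, 1.77-fold, limma adjusted p = 3.40e-06). At 2 h the values were 13.52, 13.51 and 13.68 in LysM-Cre and 14.57, 14.58 and 14.60 in the FosKO-labelled libraries. This difference was 1.02 (SE 0.10, 2.02-fold, limma adjusted p = 1.38e-07). The differences at 0.5 and 1 h, 0.89 and 0.93, lay between those at 0 and 2 h.

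Ddx58 encodes RIG-I, the helicase that binds short RNA with a free triphosphate end (chr4:40203773-40239828, minus strand). At 0 h its values were 12.02, 11.96 and 11.89 in LysM-Cre and 12.62, 12.90 and 13.11 in the FosKO-labelled libraries. The difference was 0.92 (SE 0.10, 1.89-fold, limma adjusted p = 4.34e-07), and at later times it was between 0.87 and 0.99. Replicate 1 was the lowest and replicate 3 the highest of the FosKO-labelled libraries at 0 h, as for Ifih1. At 2 h the values were 12.49, 12.47 and 12.63 in LysM-Cre and 13.39, 13.40 and 13.41 in the FosKO-labelled libraries.

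Dhx58 encodes LGP2, the helicase of this family that lacks the signalling domains and tunes the other members (chr11:100694884-100704271, minus strand). At 0 h it lay at 10.87, 10.74 and 10.62 in LysM-Cre and at 11.35, 11.48 and 11.56 in the FosKO-labelled libraries, a difference of 0.72 (SE 0.08, 1.65-fold, limma adjusted p = 4.27e-07). Its difference at 0.5, 1 and 2 h was 0.88, 0.76 and 0.80. The antisense gene Dhx58os overlaps it on the opposite strand. The groups stayed apart at every time.

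Mavs, the adaptor through which Ifih1 and Ddx58 proteins signal (chr2:131234063-131248025, plus strand), differed from the sensors above in size and, at 2 h, in direction. At 0 h it lay at 9.77, 9.75 and 9.77 in LysM-Cre and at 9.87, 9.85 and 9.82 in the FosKO-labelled libraries, a difference of 0.08 (SE 0.03, 1.06-fold, limma adjusted p = 0.0341). This call was lost with no filter on low values, with quantile normalisation, with only the compared groups in the fit, and without each of 5 of the 6 libraries, with an adjusted p up to 0.238. At 0.5 h the groups overlapped and the difference was 0.04, with a 95% interval of -0.03 to 0.10. At 1 h it was 0.12 (SE 0.03, limma adjusted p = 0.00465). At 2 h the values were 9.45, 9.45 and 9.55 in LysM-Cre and 9.27, 9.26 and 9.25 in the FosKO-labelled libraries, a difference of -0.23 (SE 0.03, 0.855-fold, limma adjusted p = 2.91e-06). Mavs was therefore the only one of the 8 with a lower value at 2 h in the FosKO-labelled libraries.

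Zbp1 encodes a sensor of left-handed Z-form nucleic acids that can start necroptosis (chr2:173206612-173218923, minus strand), and it had the largest difference among the 8 at each of the 4 times. At 0 h its values were 10.34, 10.18 and 10.11 in LysM-Cre and 11.39, 11.63 and 11.91 in the FosKO-labelled libraries. The difference was 1.43 (SE 0.13, 2.70-fold, limma adjusted p = 6.66e-08), and 56 of the 13901 tested genes had a larger positive one. At 0.5 h it was 1.66 (SE 0.13, 3.15-fold, limma adjusted p = 6.14e-09). The values at 0.5 h were 10.23, 10.03 and 10.17 in LysM-Cre and 11.69, 11.57 and 12.14 in the FosKO-labelled libraries. Replicate 3 thus stood above the other FosKO-labelled libraries at both times. The differences at 1 and 2 h were 1.44 and 1.28.

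Eif2ak2 encodes PKR, a kinase that double-stranded RNA activates and that then slows translation by phosphorylating the initiation factor eIF2 (chr17:78852564-78882573, minus strand). Its values at 0 h were 11.79, 11.77 and 11.77 in LysM-Cre and 12.18, 12.36 and 12.58 in the FosKO-labelled libraries. The difference was 0.59 (SE 0.08, 1.51-fold, limma adjusted p = 7.37e-06) and reached 0.70 at 2 h. The spread was wider in the FosKO-labelled libraries, with an SD of 0.20 against 0.01 in LysM-Cre. The gene Gm26637 overlaps Eif2ak2 on the opposite strand.

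Adar encodes the enzyme that edits adenosine to inosine in double-stranded RNA, which keeps a cell's own RNA from activating Ifih1 protein (chr3:89715022-89753446, plus strand). At 0 h it lay at 11.65, 11.61 and 11.57 in LysM-Cre and at 11.91, 12.09 and 12.15 in the FosKO-labelled libraries. This was the smallest difference apart from that of Mavs, 0.44 (SE 0.07, 1.36-fold, limma adjusted p = 1.92e-05). It was 0.54, 0.55 and 0.56 at 0.5, 1 and 2 h. Chrnb2 overlaps Adar on the opposite strand.

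Ifi204 belongs to the Pyhin family, some members of which bind DNA (chr1:173747293-173766943, minus strand). Its relatives in the same gene cluster are closely similar in sequence, so its value may include reads from them and is uncertain. At 0 h it lay at 13.16, 13.10 and 13.06 in LysM-Cre and at 13.85, 14.09 and 14.33 in the FosKO-labelled libraries. The difference was 0.98 (SE 0.10, 1.97-fold, limma adjusted p = 2.62e-07), and at later times it was between 0.91 and 1.08. After Zbp1 it had the largest difference of the 8 at 0 h.

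**Figure D2:**
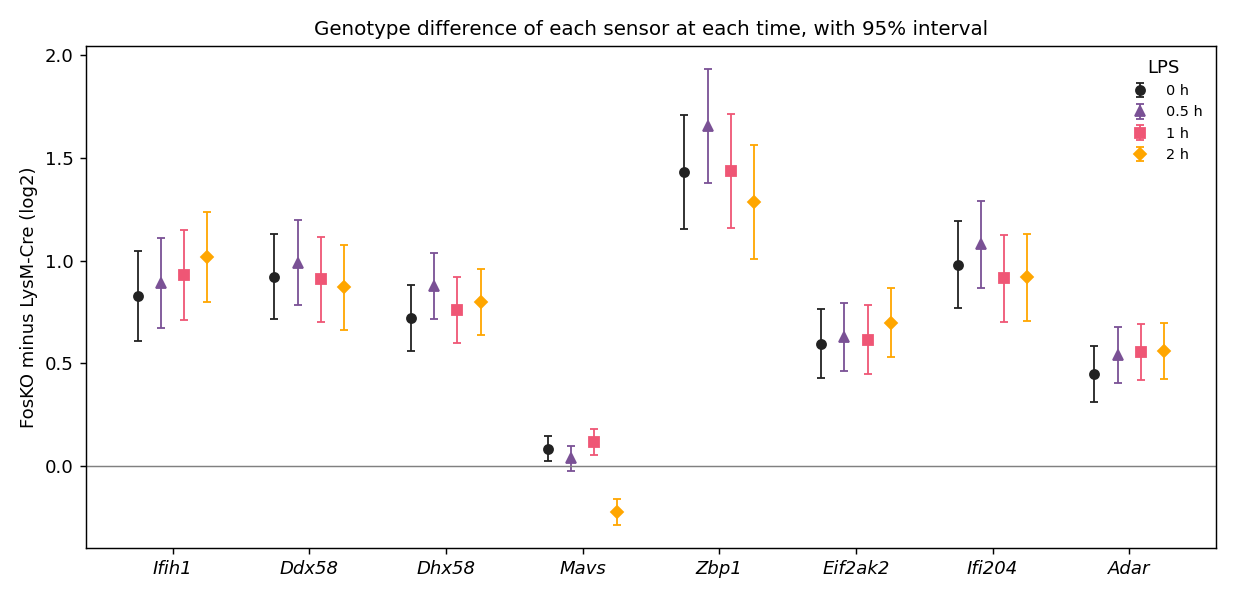
Difference between the FosKO-labelled libraries and LysM-Cre (log2) for each sensor at 0, 0.5, 1 and 2 h of LPS, with the 95% interval from the limma fit. Zbp1 is highest at each time (1.43, 1.66, 1.44 and 1.28), and only Mavs at 2 h lies below 0.

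The 5 libraries with low 18S ribosomal RNA fell in the 0.5 and 1 h groups of both genotypes, so the genotype difference was also taken within the high and low sets. At 0.5 h, with 2 libraries of each genotype in the high set, the 7 sensors other than Mavs were 0.60 (Adar) to 1.72 (Zbp1) higher in the FosKO-labelled libraries. In the low set, with 1 library of each genotype, they were 0.43 to 1.52 higher. At 1 h the high set held 2 FosKO-labelled libraries and 1 LysM-Cre library, and the low set 1 and 2. There the same 7 sensors were 0.60 to 1.61 higher in the high set and 0.45 to 1.23 higher in the low set. Mavs differed by 0.06 in the high set and by -0.01 in the low set at 0.5 h, and by 0.13 and 0.11 at 1 h.

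The next question was how LPS changed the sensors within each genotype. After 0.5 h none of the 8 was called in either genotype. Of all tested genes, 5.09% were called higher and 2.15% lower in LysM-Cre, and 4.45% and 1.47% in the FosKO-labelled libraries. At an unadjusted p under 0.05 limma gave 0 sensors in LysM-Cre and 1 in the FosKO-labelled libraries, Dhx58. At that threshold it gave 2427 and 2640 of the 13901 tested genes. Their changes lay between -0.07 and 0.07 in LysM-Cre and between -0.04 and 0.18 in the FosKO-labelled libraries. At 1 h, 1 sensor was higher and 1 lower in LysM-Cre, where 19.2% of all tested genes were called higher and 16.5% lower. The same was so in the FosKO-labelled libraries, where 17.6% were higher and 15% lower. At 2 h, 7 were higher and 1 lower in LysM-Cre (60.8% of all tested genes called, 30.6% higher) and 7 higher and 1 lower in the FosKO-labelled libraries (62.1% called, 32.6% higher).

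The sensor that rose most was Ifih1, by 1.91 at 2 h in LysM-Cre (SE 0.10, 3.75-fold, limma adjusted p = 1.66e-12) and by 2.09 in the FosKO-labelled libraries (SE 0.10, 4.27-fold, limma adjusted p = 3.22e-13). Only 269 and 227 of the 13901 tested genes rose more. Its values at 1 h were 11.96, 11.94 and 11.93 in LysM-Cre and 12.73, 12.88 and 13.01 in the FosKO-labelled libraries. The rise was thus small at 1 h, 0.28 in LysM-Cre (SE 0.10, limma adjusted p = 0.0407) and 0.38 in the FosKO-labelled libraries (SE 0.10, limma adjusted p = 0.00725), and most of it came between 1 and 2 h. The call at 1 h in LysM-Cre was lost without any one of the 6 libraries (changes of 0.25 to 0.30), with no filter and with no variance trend (0.28 in both), with high 18S libraries alone (0.30) and with quantile normalisation (0.13), where its adjusted p of 0.260 was the highest. In the FosKO-labelled libraries the call at 1 h was lost without replicate 1 of 0 h, where the change was 0.25 (limma adjusted p = 0.0632), with only the compared groups in the fit (adjusted p = 0.0735) and with quantile normalisation (0.22, adjusted p = 0.0526). The calls of Ifih1 at 2 h held under every alternative run.

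**Figure D3:**
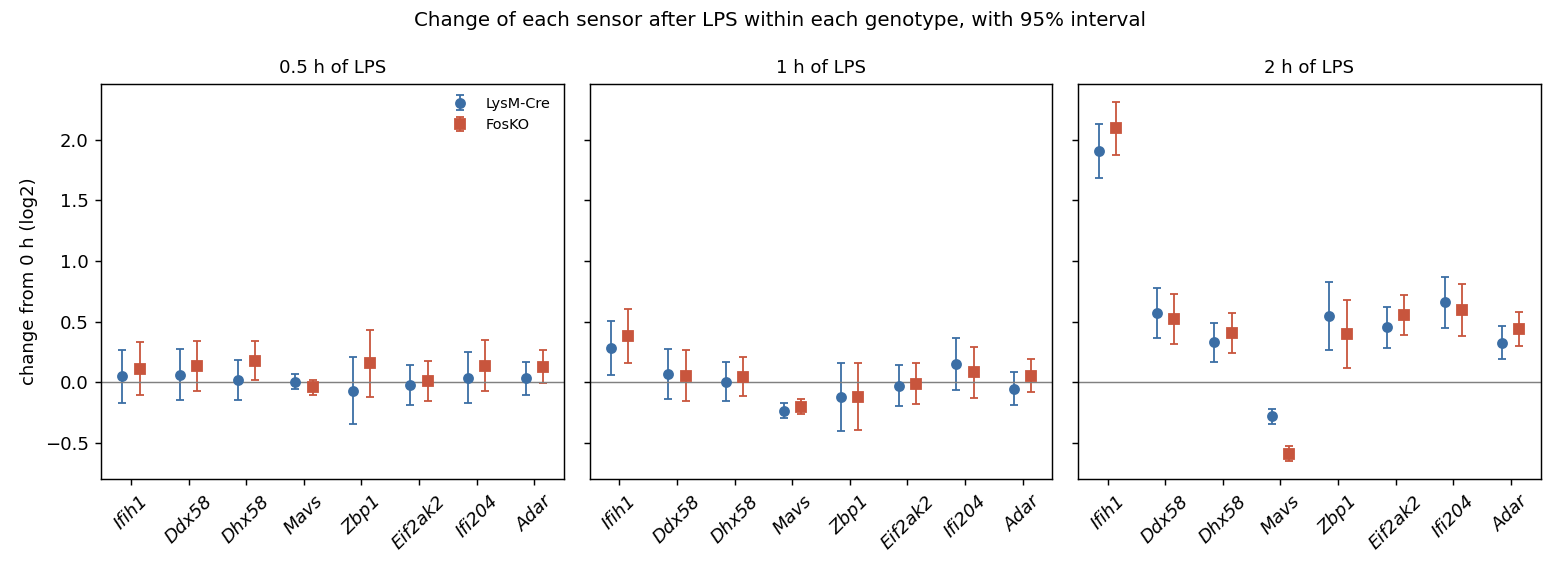
Change of each sensor from 0 h (log2) after 0.5, 1 and 2 h of LPS, with the 95% interval from the limma fit; circles are LysM-Cre and squares the FosKO-labelled libraries. At 2 h Ifih1 stands at 1.91 and 2.09, while Mavs lies below 0 at -0.28 and -0.59.

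Ddx58 and Dhx58, the other helicases, rose less at 2 h than Ifih1. Ddx58 rose by 0.57 in LysM-Cre (SE 0.10, limma adjusted p = 3.76e-05) and by 0.52 in the FosKO-labelled libraries (SE 0.10, limma adjusted p = 0.000103). Dhx58 rose by 0.33 and 0.41. Before LPS, Ifih1 relative to Ddx58 (the difference of their log2 values within a library) was -0.29 ± 0.02 in LysM-Cre and -0.385 ± 0.0040 in the FosKO-labelled libraries (SD, n = 3). At 2 h it was 1.04 ± 0.01 and 1.18 ± 0.01, and no library at 2 h overlapped any library at the earlier times. Relative to Dhx58, Ifih1 went from 0.92 ± 0.07 to 2.49 ± 0.11 in LysM-Cre and from 1.03 ± 0.14 to 2.71 ± 0.04 in the FosKO-labelled libraries. Only the change of these differences can be read, since they are not corrected for gene length. The helicase mRNAs therefore changed unequally under LPS in both genotypes.

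**Figure D4:**
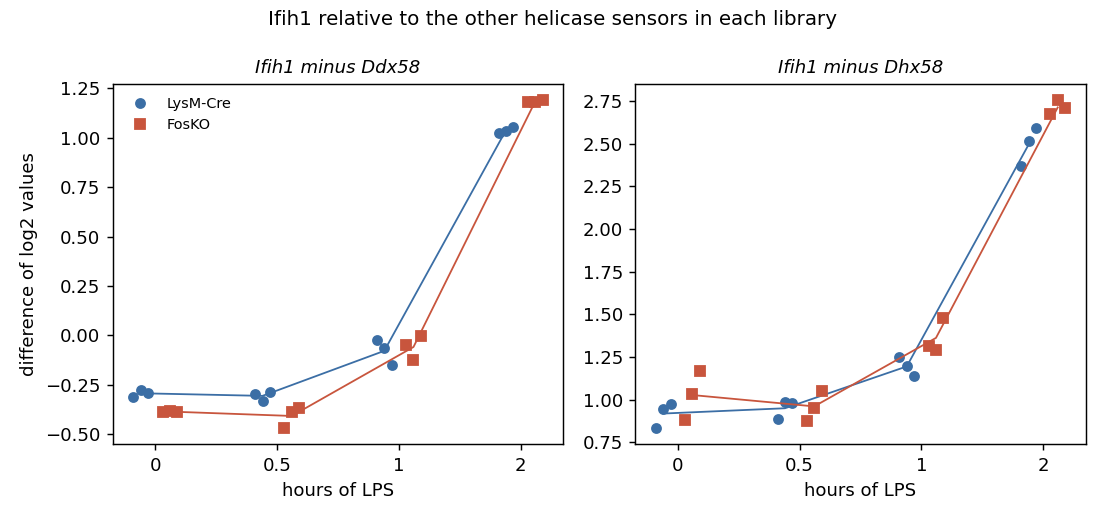
Log2 value of Ifih1 minus that of Ddx58 (left) and Dhx58 (right) in each library against hours of LPS, drawn at equal steps; circles are LysM-Cre, squares the FosKO-labelled libraries, and lines join the means. Against Ddx58 the group means go from -0.29 and -0.39 at 0 h to 1.04 and 1.18 at 2 h.

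Among the other sensors, Ifi204 rose by 0.66 in LysM-Cre (SE 0.10, limma adjusted p = 9.11e-06) and by 0.60 in the FosKO-labelled libraries (SE 0.10, limma adjusted p = 2.95e-05) at 2 h. Eif2ak2 rose by 0.45 and 0.56, and Adar by 0.33 and 0.44. Zbp1, which differed most between the genotypes, rose by 0.55 in LysM-Cre (SE 0.13, limma adjusted p = 0.00127) and by 0.40 in the FosKO-labelled libraries (SE 0.13, limma adjusted p = 0.0129). The latter call was lost without replicate 1 of 0 h (0.27, limma adjusted p = 0.0960) or without replicate 3 of 2 h (0.34, limma adjusted p = 0.0603), and over all alternatives its adjusted p reached 0.536. The calls at 2 h depended on the scaling. With quantile normalisation, 3 instead of 8 sensors were called in the FosKO-labelled libraries at 2 h, 2 higher and 1 lower (23.8% of all tested genes were then higher and 36.9% lower), and Ddx58, Dhx58, Zbp1, Ifi204 and Adar, at 0.08 to 0.14, were not called. In LysM-Cre it left 5 higher and 1 lower (24.2% and 36.3% of all), without Dhx58 (0.15) and Adar (0.06). The rises that kept their call with quantile normalisation were also smaller. Ifih1 then rose by 1.60 in LysM-Cre and 1.64 in the FosKO-labelled libraries, and Eif2ak2 by 0.19 in both. In LysM-Cre the rises were 0.30 for Ddx58, 0.35 for Ifi204 and 0.40 for Zbp1. At 1 h quantile normalisation gave 0 higher and 3 lower in LysM-Cre (14.7% and 24.4% of all). In the FosKO-labelled libraries it gave 0 higher and 2 lower (12.7% and 23.2%). Eif2ak2 (-0.17 and -0.19) was among the lower in both genotypes and Adar (-0.19) in LysM-Cre.

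Mavs fell at 1 and 2 h in both genotypes. At 2 h the other 7 were called higher, whereas at 1 h only Ifih1 was, and in LysM-Cre the changes of Zbp1, Eif2ak2 and Adar were -0.12, -0.03 and -0.05 and were not called. Its value in LysM-Cre fell by 0.23 at 1 h (a change of -0.23, SE 0.03, limma adjusted p = 2.33e-06) and by 0.28 at 2 h (a change of -0.28, SE 0.03, limma adjusted p = 5.80e-08). In the FosKO-labelled libraries it was 9.66, 9.65 and 9.64 at 1 h, a change of -0.20 (SE 0.03, limma adjusted p = 1.82e-05). At 2 h the change was -0.59 (SE 0.03, 0.665-fold, limma adjusted p = 3.54e-13), and 3 of 3 libraries lay under every library of 0 h. These calls held under every alternative run.

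The comparison of the LPS response between genotypes gave 0 of 8 sensors at 0.5 h (0.0144% of all tested genes higher and 0.101% lower). It gave 0 of 8 at 1 h (0.489% higher and 0.727% lower). At an unadjusted p under 0.05 limma gave 0 sensors at both times, against 905 and 1073 of the 13901 tested genes. At 2 h the comparison of responses gave 1 of 8, Mavs (7.27% higher and 7.70% lower). The fall of Mavs was larger by 0.31 in the FosKO-labelled libraries, a difference in response of -0.31 (SE 0.04, limma adjusted p = 2.86e-05). For the others at 2 h the difference in response was 0.19 for Ifih1 (95% interval -0.12 to 0.50), -0.05 for Ddx58 (-0.34 to 0.24) and 0.08 for Dhx58 (-0.15 to 0.31). For Zbp1 it was -0.15 (-0.54 to 0.25), for Eif2ak2 0.10 (-0.13 to 0.34), for Ifi204 -0.06 (-0.36 to 0.24) and for Adar 0.11 (-0.08 to 0.31). Each of these 7 intervals includes 0, which does not show that the responses were equal.

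Ordered by deposited level, the groups of the 7 sensors other than Mavs fell into a similar sequence. How many of all tested genes had this order, or groups apart across times, was not counted. With quantile normalisation the rises at 2 h of Ddx58, Dhx58, Zbp1, Ifi204 and Adar in the FosKO-labelled libraries were not called. The LysM-Cre groups at 0, 0.5 and 1 h were the lowest for all 7, and for Ddx58, Dhx58, Zbp1, Eif2ak2, Ifi204 and Adar their neighbours overlapped one another. For Ifih1, LysM-Cre at 1 h was clear of the earlier times. LysM-Cre at 2 h came next for 6 of the 7, below the unstimulated FosKO-labelled libraries. For Zbp1 and Dhx58 the lowest unstimulated FosKO-labelled library, at 11.39 and 11.35, was above the highest LysM-Cre library at 2 h, at 10.94 and 11.15. For Ddx58, Eif2ak2, Ifi204 and Adar these groups overlapped. Ifih1 was the exception, since LysM-Cre at 2 h, with a mean of 13.57, was above the FosKO-labelled libraries at 0, 0.5 and 1 h and clear of them. The FosKO-labelled libraries at 2 h were the highest for all 7, and for Dhx58 and Zbp1 they overlapped those of 0.5 h. Mavs had a different order, in which the FosKO-labelled libraries at 2 h were the lowest, at 9.26, and clear of all the others, while the libraries of both genotypes at 0 and 0.5 h were the highest.

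The sensors varied together between libraries of the same group. After the group means were removed, the 21 pairs among the 7 sensors other than Mavs correlated over the 24 libraries at r between 0.67 and 0.97, with a median of 0.91. Pairs with Mavs lay between -0.22 and -0.02. These values describe libraries that share preparation and normalisation. The spread was largest in the FosKO-labelled libraries at 0 h, with a median SD of 0.22 over the sensors and of 0.08 over all tested genes, and at 0.5 h, with 0.19 and 0.07. At 2 h in the FosKO-labelled libraries the median SD of the sensors was 0.03. At 0 h in these libraries replicate 1 was the lowest for 7 of the 8 and replicate 3 the highest for 7 of the 8. Replicate 3 was also the highest for 7 of the 8 at 0.5 h, where the 7 sensors other than Mavs averaged 0.24 above their group means.

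**Figure D5:**
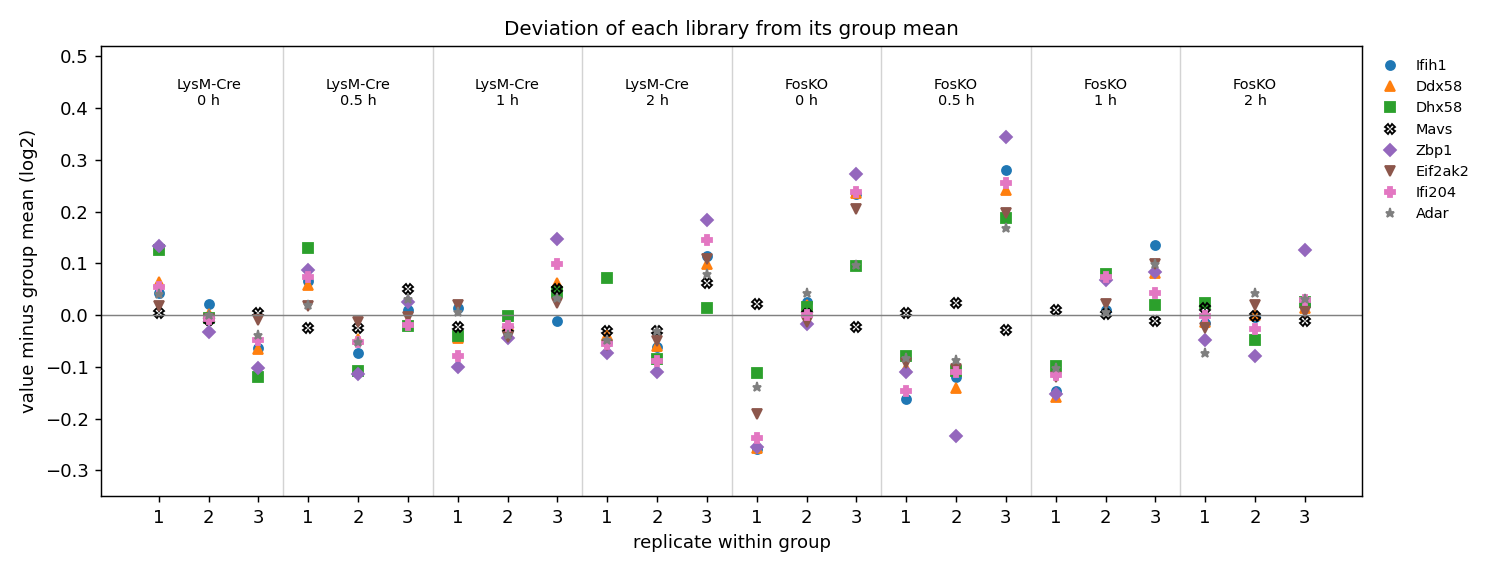
Value of each sensor minus its group mean (log2) in each of the 24 libraries, ordered by group and replicate. In the FosKO-labelled libraries at 0 h, the 7 sensors other than Mavs averaged -0.21 in replicate 1 and 0.20 in replicate 3, while Mavs lay between -0.02 and 0.02 in the 3 libraries.

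For each sensor the 3 protein-coding genes with the most similar pattern were found by Pearson's r over the 24 libraries, which share their genotypes and times. The genes nearest to Ifih1 were AA467197 (r = 0.995), Ythdf1 (r = 0.993) and Zufsp (r = 0.990). Ddx58 and Ifi204 shared Parp12 (r = 0.996 with each) and Isg20 (r = 0.995 and 0.994) as the nearest genes. Zbp1 was nearest to Phf11b, Phf11d and Gm4955, and Dhx58 to Ube2l6, H2-T23 and Lgals9. Eif2ak2 and Adar shared Oasl2 (r = 0.991 and 0.990), while Mndal was nearest to Eif2ak2 and Sp110 to Adar. Mavs was nearest to Vps18 (r = 0.974), Snx33 (r = 0.970) and Trim8 (r = 0.967).

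The sensors act with other genes, of which 43 were listed by role, with earlier results of these data known. Of these, 41 were tested, and Rnf125 and Ifi202b did not pass the filter. In the FosKO-labelled libraries, 24 were higher before LPS and 2 were lower, where 19.5% and 15.9% of all tested genes were. After 0.5 h these numbers were 25 and 3 (21.2% and 19.7% of all), after 1 h 22 and 1 (18% and 15.9%), and after 2 h 25 and 4 (24.4% and 20.3%). The median difference of the list at 0 h was 0.17, against 0.00 over all tested genes. Under LPS, 3 of the 41 were higher and 0 lower in LysM-Cre after 0.5 h, where 5.09% and 2.15% of all tested genes were. After 1 h it was 18 and 2 (19.2% and 16.5% of all), and after 2 h 26 and 5 (60.8% of all called, 30.6% higher). The FosKO-labelled libraries gave 6 and 0 after 0.5 h (4.45% and 1.47% of all), 15 and 4 after 1 h (17.6% and 15%), then 29 and 5 after 2 h (62.1% called, 32.6% higher). The response differed between the genotypes for 1 of the 41 at 0.5 h, which was higher (0.0144% of all tested genes higher and 0.101% lower). At 1 h the difference in response was above 0 for 2 and below 0 for 1 (0.489% and 0.727% of all), and at 2 h it was above 0 for 4 and below 0 for 4 (7.27% and 7.70%).

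Some of these counts for the 41 changed with single libraries or settings. At 0 h the genotype comparison gave 20 higher and 1 lower without FosKO replicate 3. For LPS at 0.5 h in the FosKO-labelled libraries, 11 instead of 6 were higher without replicate 3 of 0 h, 9 with a replicate block, 10 with the block set within each genotype and 2 with only the compared groups in the fit. The last setting also gave 9 higher and 2 lower after 1 h, and in LysM-Cre 5 instead of 3 after 0.5 h, as did the block within each genotype. After 1 h in the FosKO-labelled libraries the 4 lower became 2 without replicate 2 or 3 of 0 h or replicate 1 of 1 h. Equal library medians and high 18S libraries alone also gave 2 lower there. After 1 h in LysM-Cre the 2 lower became 0 without replicate 2 of 0 h. For the response at 2 h, 4 were above 0 and 9 below it without FosKO replicate 1 of 0 h, 7 and 4 without replicate 3 of 0 h, 6 and 6 with the block and 6 and 8 with the block within each genotype. Quantile normalisation left the list's lower calls for the response at 0.5 and 1 h at 0 and 1. In the comparisons that follow it raised the number of lower calls, both in the list and over all tested genes. For the genotypes it gave 21 and 3 before LPS (16.4% of all tested genes higher and 19.8% lower), 24 and 5 after 0.5 h (19% and 22.7%), 21 and 5 after 1 h (15% and 20%) and 22 and 8 after 2 h (18.7% and 24.7%). For LPS in LysM-Cre it gave 15 and 10 after 1 h (14.7% and 24.4%) and 21 and 11 after 2 h (24.2% and 36.3%). In the FosKO-labelled libraries these were 9 and 10 (12.7% and 23.2%), then 21 and 9 (23.8% and 36.9%). For the response at 2 h they were 4 and 11 (5.76% and 8.65%).

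Of the 10 tested co-factors of RNA sensing, 5 were higher and 1 lower at 0 h (19.5% and 15.9% of all tested genes). At 0.5 h 6 were higher and 2 lower (21.2% and 19.7%), at 1 h 5 and 0 (18% and 15.9%), and at 2 h 6 and 0 (24.4% and 20.3%). The lower one at 0 h, Prkra (-0.10), kept its call under 4 of 16 alternatives. The 2 lower at 0.5 h were Prkra (-0.16, limma adjusted p = 0.00186), kept under 16 of 16, and Dhx9 (-0.09, limma adjusted p = 0.0104), kept under 13 of 16. Of the 5 at 1 h, Pcbp2 (0.06, limma adjusted p = 0.0316) kept its call under 7 of 16. Of the 6 at 2 h, Dhx9 (0.07) kept its call under 6 of 16 and Rnf135 (0.22) under 9 of 16. These genes were named after their values were seen. Ddx60, a helicase reported to assist Ddx58 protein, had differences of 0.94 at 0 h (SE 0.11, limma adjusted p = 1.40e-06) and 1.12 at 2 h. Nlrx1, a mitochondrial protein that restrains Mavs signalling, fell under LPS as Mavs did, with changes at 2 h of -0.85 in LysM-Cre and -0.77 in the FosKO-labelled libraries (SE 0.06 in both, limma adjusted p = 1.75e-10 and 7.02e-10).

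Of the 8 genes that signal below Mavs, 4 were higher at 0 h in the FosKO-labelled libraries, 5 at 0.5 h and 4 at 1 h, with 0 lower, and 3 were higher and 1 lower at 2 h. Of all tested genes, 19.5%, 21.2%, 18% and 24.4% were higher at these times and 15.9%, 19.7%, 15.9% and 20.3% lower. One of the 4 at 0 h, Tomm70a (0.07, limma adjusted p = 0.0434), kept its call under 7 of 16 alternatives. Irf7, the interferon-induced factor that transcribes type I interferons, had means of 11.73 in LysM-Cre and 12.94 in the FosKO-labelled libraries at 0 h (SE of the difference 0.13, limma adjusted p = 2.78e-07), and it was 1.05 higher at 2 h. The kinase gene Ikbke was 0.60 higher at 0 h (SE 0.07, limma adjusted p = 1.73e-06), and at 2 h its difference of 0.06 was not called. Ifnb1, the interferon beta gene at the end of this pathway, did not pass the test at 0 h, with means of 6.08 in LysM-Cre and 6.17 in the FosKO-labelled libraries. At 1 h its means were 8.99 and 12.18, a difference of 3.18 (SE 0.12, limma adjusted p = 1.45e-13), and at 2 h they were 9.88 and 12.89. Its response to 2 h of LPS was 2.91 larger in the FosKO-labelled libraries. Traf3, an adaptor that Mavs recruits, was the gene lower at 2 h, with a difference of -0.35.

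Among 5 genes of cytosolic DNA sensing, 4 were higher at 0 h in the FosKO-labelled libraries (19.5% of all tested genes). Trex1, an exonuclease that clears cytosolic DNA, was 0.59 higher (SE 0.07, limma adjusted p = 9.44e-07), and Samhd1, which lowers the pool of nucleotides, was 0.49 higher (SE 0.08, limma adjusted p = 0.000110). Without FosKO replicate 3 the 4 became 2, since Mb21d1 (0.25) and Tmem173 (0.17), named after their values were seen, were then not called. All 6 tested Pyhin relatives of Ifi204 were higher at each of the 4 times, at which 19.5%, 21.2%, 18% and 24.4% of all tested genes were. Ifi205 had differences of 1.91 at 0 h (SE 0.19, limma adjusted p = 1.61e-07) and 1.34 at 2 h, and it rose under LPS by 3.02 at 2 h in LysM-Cre and by 2.45 in the FosKO-labelled libraries. These relatives share sequence with Ifi204, so their values may not be independent of that of Ifi204, which was not tested.

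Of the 7 kinases of eIF2 and their partners, 2 were higher and 0 lower at 0, 0.5 and 1 h in the FosKO-labelled libraries, and 3 were higher and 2 lower at 2 h. The 2 of 7 are near the share of all tested genes, of which 19.5%, 21.2% and 18% were higher at the first 3 times and 24.4% at 2 h. The shares called lower were 15.9%, 19.7%, 15.9% and 20.3% at 0, 0.5, 1 and 2 h. One of the 3 at 2 h, Eif2ak4 (0.11, limma adjusted p = 0.0492), which is named after its value was seen, kept its call under 7 of 16 alternatives. The genes that moved at 0 h were Atf4 (0.51), which encodes a factor whose translation rises when eIF2 is phosphorylated, and Ppp1r15a (0.48), which encodes the subunit that reverses this phosphorylation. Ppp1r15a rose early under LPS, by 3.14 at 0.5 h in LysM-Cre and by 2.98 in the FosKO-labelled libraries, when no sensor was called. Eif2ak3, another kinase of eIF2, fell under LPS with changes at 2 h of -0.84 and -1.17, opposite to Eif2ak2. Of the 4 genes of the death pathway below Zbp1, 3 were higher and 1 lower at 0 h (19.5% and 15.9% of all tested genes). At 2 h the counts were the same (24.4% and 20.3%), and at 0.5 and 1 h they were 2 and 1 (21.2% and 19.7%, then 18% and 15.9%). Casp8 was higher at all 4 times, by 0.24, 0.27, 0.16 and 0.49, and Ripk1 at 0 and 2 h, by 0.12 and 0.33. Mlkl, the effector of necroptosis, was 0.79 higher at 0 h (SE 0.09, limma adjusted p = 1.64e-06) and 0.98 higher at 2 h. Ripk3, the kinase that joins Zbp1 protein to Mlkl protein, was lower at all 4 times, with differences of -0.37, -0.37, -0.31 and -0.24 (limma adjusted p between 0.000205 and 0.00677). Adarb1, a relative of Adar, had a difference of -0.21 at 0 h (SE 0.14, limma adjusted p = 0.274) and was called in none of the 13 comparisons.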

How the data were processed

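Per the study's methods, TruSeq libraries of BMDM RNA gave strand-specific single-end reads on a HiSeq 2500. The authors used STAR 2.5.2a, RSEM 1.2.31 and DESeq2 1.16.1 on the build GRCm38 (mm10), per the labels, whereas the study's methods give another DESeq2 version and RefSeq gene models. The authors deposited normalised log2 values, which ran from -2.22 to 19.39 and resemble a regularised log, so that differences of genes with few reads may be understated. Whole counts could not be recovered, so intervals based on counting were not computed. For depth, the authors report only a typical read yield, and that of each single library is unknown. All 24 columns were used.

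The filter asked for a linear value (2 raised to the log2 value) of 5 or more in 3 or more libraries and kept 13901 of 24273 genes. A single fit in limma 3.58.1 (R 4.3.3) held 8 group means, empirical Bayes with a trend and 16 residual degrees of freedom, and gave 13 comparisons. The Benjamini-Hochberg adjustment ran over every tested gene, and intervals are at 95%. The fit was tested on simulated data. The design had assumed values on another scale with a pseudocount of 1, which became an alternative. With 3 libraries against 3 an exact permutation test cannot give a two-sided p below 0.1 and was not used. The study calls its libraries biological replicates, but since no source ties them to separate mice, p-values measure the spread between these libraries.

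The members and gene lists were chosen with earlier results of these data known. All 8 sensors are named, with up to 4 called genes of a listed group by the size of t, and 3 similar genes for each sensor. Coordinates are from GENCODE M21, where 99.7% of identifiers were found, and promoters are from RefSeq. Comparisons against 0 h share their control libraries. Alternatives changed the filter, scaling, pseudocount, variance model, 18S set and replicate block, and left out each library in turn. Figures were drawn with matplotlib 3.10.9.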

Additional observations from a re-analysis of the deposited data

Results flagged for a closer look

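The response of Mavs to 2 h of LPS is listed because it differed between the genotypes by a test of the difference itself. It was 1 of 8 sensors called, in a comparison that called 7.27% of all tested genes higher and 7.70% lower. The change was -0.28 in LysM-Cre and -0.59 in the FosKO-labelled libraries, and the difference between them was -0.31 (SE 0.04, limma adjusted p = 2.86e-05), which lay between -0.33 and -0.28 over 23 alternatives with an adjusted p between 5.35e-06 and 0.000821. In 3 of 3 FosKO-labelled libraries at 2 h the value was below that of every LysM-Cre library at 2 h. Groups of 3 libraries were not examined for single outlying libraries.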

How the results depend on the processing

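Of 1880 alternative values of the 104 differences of the sensors, 1846 kept their direction and their side of the threshold (the sign of a difference called in neither fit was not counted), 30 lost their call, 4 gained one and 0 turned their direction. All 448 alternatives of the genotype differences of the 7 sensors other than Mavs kept the call. For LPS at 1 h in LysM-Cre, 1 instead of 2 sensors was called with no filter on low values, with no variance trend and with high 18S libraries alone, and the count was 1 without each of the 6 libraries in turn. At 1 h in the FosKO-labelled libraries it was 1 instead of 2 with only the groups compared, and 1 to 2 over the libraries left out (1 without replicate 1 of 0 h). At 2 h in the FosKO-labelled libraries it was 3 instead of 8 with quantile normalisation. No scaling moved the median difference of all tested genes by 0.1 or more. The cause of these changes was not tested. The depth of each single library is unknown, which limits what can be said of small differences such as those of Mavs.

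Same-numbered libraries deviated together, at r over 0.1, in 18 of 84 pairs and in 12 of the 36 pairs within a genotype, and 15 of 24 libraries correlated best with their own number, which is a hint of shared variation from the data and not from the design. Other same-numbered pairs deviated in opposite directions, down to r = -0.53 for replicate 1 of the 1 h groups. There the LysM-Cre library was in the high 18S set and the FosKO-labelled library in the low set. Of the groups compared, the FosKO-labelled groups of 0 and 0.5 h alone had all 3 pairs over 0.1 (r = 0.19, 0.13 and 0.27), and there the block gave 0 called sensors, as without it. The FosKO-labelled groups of 0.5 and 1 h, which were not compared with each other, had r = 0.71, 0.38 and 0.33. Both libraries of the pair at 0.71, replicate 1, were in the low 18S set. The part of the 18S set in these correlations was not tested. The other groups compared were not taken as paired. With the replicate block the counts of called sensors were 8, 7, 8 and 8 for the genotypes at 0, 0.5, 1 and 2 h, and 2 and 8 for LPS at 1 and 2 h in both genotypes, as without it. A block within each genotype could not give the genotype comparisons.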
